A study of Mus musculus with 4 samples.

Results

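The loci described here carried a position and an expression value but no gene symbol. They were the rows present in the values of all 4 samples whose symbol was a dash, and there were 1324 of them among 20605 loci, or 6.43%. The samples came from the tibialis anterior (TA), a muscle of the lower hind limb, of wild type C57BL/6 mice, and no allele, construct or drug was part of any group. Old muscles were taken at 20 months (Old 1 and Old 2) and young muscles at 3 months (Young 1 and Young 2). Messenger RNA was sequenced, and each value is in FPKM, fragments normalised for transcript length and for the number of mapped fragments. The labels did not say whether samples of an age came from separate animals, so no p-value below can be taken to measure the spread between animals. In the main test of age the error came almost wholly from all rows together, and little from the 4 values of a locus. The question was which of the loci differed with age.

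An assembler such as Cufflinks joins aligned reads into transcripts wherever they fall, whether or not a gene has been described there. A piece of genome that is read but does not match the gene set used to guide the assembly keeps a position and an assembly number in place of a name. Such loci can be unannotated exons or ends of known genes, long non-coding RNAs, transcripts of introns, or processed pseudogenes, which are copies of a spliced messenger RNA pasted back into the genome. A young processed pseudogene can be almost letter for letter the same as its parent gene, and reads that cover only shared letters cannot be told apart by sequence.

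The sequences below are shown because they lay under some of the highest and the most age-divided loci without a symbol. They are the stretches of GENCODE M21 pseudogene transcripts (GRCm38, the build called mm10) that fell within each locus, 5′ to 3′ on the strand of the pseudogene. Capitals mark bases that differed from the best matching protein-coding transcript in a blastn search. Only protein-coding transcripts were searched, so a closer match among other pseudogenes would not be seen.
Gm9616 (chr13:3298887-3298987, plus strand): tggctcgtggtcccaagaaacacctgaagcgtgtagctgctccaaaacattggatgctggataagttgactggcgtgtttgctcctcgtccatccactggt
Gm13910 (chr2:108948806-108948878, plus strand): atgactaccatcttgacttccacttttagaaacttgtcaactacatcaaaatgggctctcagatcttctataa
Rpl31-ps8 (chr15:90764279-90764346, minus strand): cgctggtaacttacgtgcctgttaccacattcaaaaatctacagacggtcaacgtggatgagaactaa
Gm11942 (chr4:32965153-32965232, plus strand): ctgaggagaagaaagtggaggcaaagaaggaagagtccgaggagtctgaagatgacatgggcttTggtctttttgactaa
Gm6969 (chr12:24638694-24638891, minus strand): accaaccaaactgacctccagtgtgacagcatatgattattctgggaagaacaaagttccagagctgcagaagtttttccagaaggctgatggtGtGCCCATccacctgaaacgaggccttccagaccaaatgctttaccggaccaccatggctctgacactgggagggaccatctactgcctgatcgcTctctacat

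The Gm9616 stretch was identical over 101 bases to Rps4x, a protein of the small ribosomal subunit. The Gm13910 stretch was identical over 73 bases to Hadhb, a subunit of the mitochondrial enzyme of fatty acid oxidation, and the Rpl31-ps8 stretch over 68 bases to Rpl31, a protein of the large ribosomal subunit. The Gm11942 stretch differed at 1 of 80 bases from Rplp1, a large subunit stalk protein, and a predicted gene matched equally well. The Gm6969 stretch was 96.0% identical over 198 bases to Cox7a2l, a protein of respiratory chain supercomplexes. A value at any of these loci and a value at its parent could therefore share reads, and their part in the values was not tested.

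Several facts of the series bear on every value below. Of the skeletal muscle markers 11 of 12 had a value, 10 of them stood at 100 FPKM or more in every sample, and Ckm, the creatine kinase of muscle, was listed at 0 in all 4. A listed 0 is therefore not read as absence. Eif5, a translation initiation factor that cells need, was listed at 5191 and 0 FPKM in Old 1 and Old 2 and 0 and 4293 FPKM in Young 1 and Young 2. The summed FPKM of all loci was 698130 in Old 1 and 739302 in Young 2 but 226747 in Old 2 and 251294 in Young 1, and the read depth behind these sums is unknown. Among 1677 loci with a symbol at 10 to 100 FPKM in every sample, the log2 ratio of Old 1 to Old 2 had a robust SD (scaled median absolute deviation) of 0.04 and that of Young 2 to Young 1 of 0.05, against 0.33 for Old 1 to Young 2. From these values a pair of animals at an age cannot be told apart from 1 library measured at different depths. Summed adipocyte markers ranged from 166 to 351 FPKM, summed fibroblast markers from 86.0 to 246 FPKM and summed leukocyte markers from 0.691 to 5.11 FPKM over the samples, each highest in Young 2 and lowest in Old 2.

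The loci without a symbol were short. Their median length was 1082 bp, with a lower quartile of 654 bp and an upper quartile of 3170 bp, whereas loci with a symbol had a median of 20693 bp. The shortest loci measured 106 bp, and the longest span was 495541 bp, at chr1:161982494-162478034. That longest span held Dnm3, a dynamin gene, with Dnm3os, Mir199a-2 and Mir214, it was shared with another row, and its values were 0.927 and 0 FPKM in Old 1 and Old 2 and 0.0655 and 1.10 FPKM in Young 1 and Young 2. Of the 1324 loci, 1145 (86.5%) were alone on their span, with a median of 931 bp, and 179 shared the exact span with another row. For a shared span the length is that of the whole bundle and says nothing of the unnamed transcript.

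They also sat apart in the numbering of the assembly. Along each numbered chromosome except chromosome 7 the identifiers ran through 3 passes, the first with genes of the plus strand (8602 of those with a symbol and a matched strand, against 67 of the minus strand) and the second with genes of the minus strand (8412 against 70). The third pass held 1051 loci, of which 1047 had no symbol, and these made up 79.1% of all loci without one. The remaining loci were spread over the first pass (143) and the second (134). Loci of the third pass were the shortest, with a median of 883 bp against 5149 bp in the first pass and 3959 bp in the second. Which strand the third pass stood for is not given in the sources used here. A locus of that pass beside a gene therefore cannot be placed on its sense or antisense strand.

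Loci without a symbol occurred on all 17 numbered chromosomes that had values in the 4 samples (chromosomes 1 to 7 and 10 to 19). The values ended in chromosome 7, and chromosomes 8, 9, X and Y were not analysed here. Chromosome 2 held 128, chromosome 17 held 127, chromosome 1 held 111, chromosome 4 held 104 and chromosome 11 held 100. As a share of the loci of a chromosome they were most frequent on chromosome 18 (10.54%) and chromosome 17 (10.22%) and least frequent on chromosome 7 (0.98%, or 17 loci). Chromosome 7 was the last chromosome in the order of the values and lacked the third pass, and among the others chromosome 10 was lowest at 4.68%. None of the 28 loci on unplaced scaffolds was without a symbol.

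By their listed spans, most of these loci did not touch a locus with a symbol. An overlap of at least 1 base was found for 82 (6.2%), all of them on a span shared with the named row. None of the 1145 loci alone on their span overlapped one. Every overlap was thus a shared span, which these loci lack by definition, so its absence there is not a result about position. For the other 1242 loci the median distance to the nearest locus with a symbol was 4530 bp, 645 (51.9%) lay within 5 kb and 292 (23.5%) within 1 kb. Within 1 kb the locus was upstream of its neighbour in 209 cases and downstream in 83. Within 5 kb the split was closer, with 358 upstream and 287 downstream.

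A later and larger annotation named many of them. Against GENCODE M21, 606 of the 1145 loci alone on their span touched a gene and 539 (47.1%) touched none. An exon of a protein-coding gene was touched by 212, an exon of a long non-coding RNA by 176, only an intron by 156, an exon of a pseudogene by 60 and an exon of a small RNA by 2. The pseudogene loci were the shortest, at a median of 413 bp against 893 bp for those over no gene and 1200 bp for those over long non-coding RNAs.

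Most loci without a symbol were low. Their median was 1.72 and 0.0579 FPKM in Old 1 and Old 2 and 0.0704 and 1.78 FPKM in Young 1 and Young 2. Old 1 and Young 2 were close to each other and far above the other pair, which were also close to each other. At least 1 FPKM was reached in Old 1 or Young 2 by 1287 loci (97.21%), against 51.4% of loci with a symbol. In Old 2 or Young 1 it was reached by 193 (14.58%), against 39.81% of loci with a symbol. Both kinds of locus thus lost members in the lower pair of samples, and the loci without a symbol lost more. Loci without a symbol are listed only where reads were assembled, whereas loci with one come from the gene set. How far this shaped the shares was not tested.

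**Figure D1:**
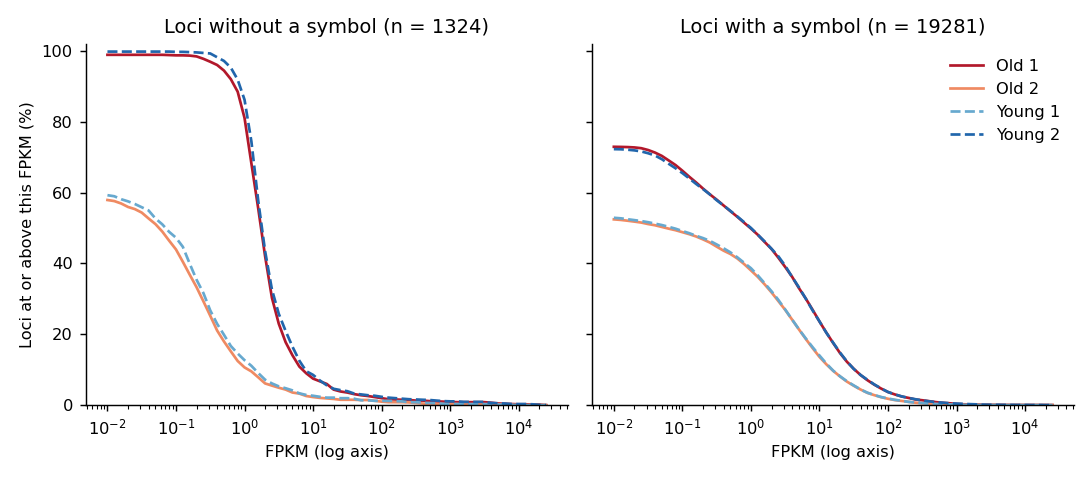
Share of loci (%, vertical axis) listed at or above each FPKM (log horizontal axis) in each of the 4 samples, for loci without a symbol (left) and with one (right). At 1 FPKM the loci without a symbol stood at 81.1% in Old 1 and 86.3% in Young 2 but at 10.6% in Old 2 and 12.7% in Young 1.

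Zeros followed the same division and not age. Among the loci without a symbol, 14 in Old 1 (1.1%) and 545 in Old 2 (41.2%) were listed at 0, as were 529 in Young 1 (40.0%) and 2 in Young 2 (0.2%). Loci with a symbol were listed at 0 more evenly, at 27.0% and 46.7% in Old 1 and Old 2 and 46.3% and 27.7% in Young 1 and Young 2. Of the loci without a symbol 616 were above 0 in all 4 samples, and 360 (27.19%) were above 0 in Old 1 and Young 2 and at 0 in the other pair. Another 170 were at 0 in Old 2 alone and 162 at 0 in Young 1 alone. A zero pattern that divided the ages was rare. At 0 in both old samples and above 0 in both young samples were 9 loci (0.68%, against 0.04% of loci with a symbol). The other way around was 1 locus (0.08%, against 0.06% of loci with a symbol). No locus without a symbol was at 0 in all 4 samples, whereas 4684 loci with a symbol (24.29%) were. A locus without a symbol is listed only where reads were assembled, and how far this shaped that contrast was not tested.

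Within an age the step between samples was also larger at these loci. Among the 616 loci above 0 throughout, Old 1 exceeded Old 2 by a median of 2.52 on the log2 scale, with a robust SD of 1.12, against 1.15 and 0.28 in 10048 loci with a symbol. Young 2 exceeded Young 1 by a median of 2.50, against 1.12. Between ages the medians were near 0, at 0.01 for Old 1 to Young 2 and 0.01 for Old 2 to Young 1. The step moved with level in both kinds of locus: below a mean of 1 FPKM the median log2 step from Old 2 up to Old 1 was 3.11 in 257 loci without a symbol and 2.40 in 1586 with one. From 3 to 10 FPKM it was 1.74 in 80 loci without a symbol and 1.10 in 2920 with one. Old 1 was above Old 2 at 98.94% of the loci without a symbol, and Young 2 above Young 1 at 99.85%.

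A handful of very short loci carried most of the signal. The loci without a symbol summed to 15.39% and 10.57% of all FPKM in Old 1 and Old 2, and to 11.8% and 16.91% in Young 1 and Young 2, and the 10 highest in each sample made up 83.4% to 93.3% of that sum. FPKM divides by transcript length, so the same number of fragments gives a higher value at a shorter locus. Among loci alone on their span, the 18 shorter than 150 bp had a median of 3722 and 179 FPKM in Old 1 and Old 2 and 290 and 3965 FPKM in Young 1 and Young 2. The 44 loci from 150 bp to under 300 bp had medians of 18.7, 1.69, 2.26 and 35.0 FPKM in the same order, and the 562 loci from 300 bp to under 1000 bp had medians of 1.61, 0, 0 and 1.60 FPKM. The 188 loci with a symbol shorter than 150 bp were nearly all listed at 0, 187 of them in Old 1 and 188 in Young 2.

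**Figure D2:**
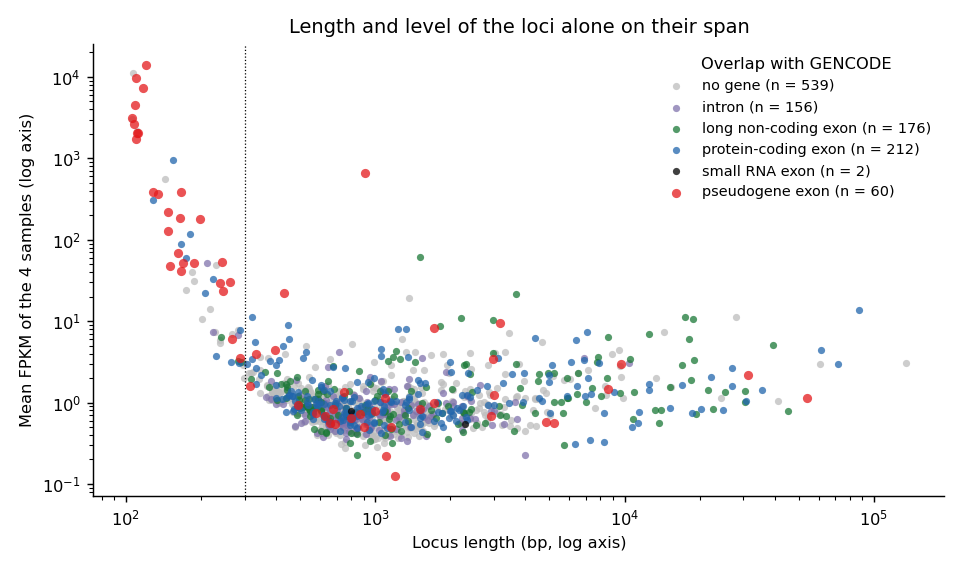
Length of each of the 1145 loci alone on their span (bp, log horizontal axis) against the mean FPKM of the 4 samples (log vertical axis), coloured by the GENCODE M21 feature it touched, with a dotted line at 300 bp. Of the 24 loci with a mean of 100 FPKM or more, 23 lay left of the line and 17 touched a pseudogene exon.

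The 24 loci with a mean of at least 100 FPKM included 17 over a pseudogene exon, 3 over an exon of a protein-coding gene and 4 over no GENCODE gene. Of the 62 loci shorter than 300 bp, 27 touched a pseudogene exon. A parent gene was searched, among protein-coding transcripts only, for the 56 pseudogene loci that shared at least 30 bases with the pseudogene. Of these 53 had a match. The median identity was 97.9%, 32 matched at 95% or better, 14 were identical over the aligned bases, and 13 had a ribosomal protein gene as the best match. Of the 17 pseudogene loci above 100 FPKM 14 had a match, and all 14 were at least 95% identical to it. The others shared only 17, 7 and 5 bases with Gm11942, Gm14303 and Gm6444 and were not searched.

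The 10 highest loci by mean were between 106 and 120 bp long. The highest, chr13:3298868-3298987 over Gm9616, stood at 20505 and 9298 FPKM in Old 1 and Old 2 and 8361 and 18723 FPKM in Young 1 and Young 2, so each age held a high and a lower value. The locus chr6:99877610-99877716, over no gene, stood at 20259, 5059, 3235 and 16020 FPKM in that order. The locus over Gm13910, chr2:108948769-108948878, stood at 15486, 4448, 4279 and 14989 FPKM. In all of these the ages overlapped, and the fold changes (0.14 ± 1.85, 0.49 ± 1.73 and 0.05 ± 1.71 on the log2 scale, Old minus Young, with SE) were far inside their errors. Hadhb, the gene with the same letters as the Gm13910 stretch, was listed at 335, 165, 193 and 397 FPKM, in the order of the samples used above.

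The next loci had the same high pair but fell away more in the other. The locus chr2:172509419-172509527, which touched Gm14303 by 7 bases, stood at 8632 and 1435 FPKM in Old 1 and Old 2 and 931 and 7055 FPKM in Young 1 and Young 2. The locus chr16:22295359-22295469, over no gene, stood at 3982, 350, 332 and 3964 FPKM in that order. The locus over Rpl31-ps8, chr15:90764235-90764346, stood at 3366, 282, 473 and 4141 FPKM, and Rpl31 itself at 296, 143, 156 and 317 FPKM. Their ages overlapped, with log2 fold changes between -0.52 and 0.46. One of the 2 shortest loci, chr5:123066695-123066800, touched Gm6444 by 5 bases and stood at 6604, 89.4, 0 and 5877 FPKM. Its log2 fold change of 3.33 ± 1.05 (SE) was the highest that missed the threshold (limma, adjusted p = 0.439).

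Old and young muscles were then compared at every locus with limma on log2(FPKM + 1), over rows that reached 1 FPKM in 2 samples or more and with Benjamini-Hochberg adjustment over all 10266 rows tested. The filter kept 947 of the 1324 loci without a symbol. It left out 377, of which 340 reached 1 FPKM in Old 1 or Young 2 alone. The tested loci showed no common shift: 461 had a higher and 486 a lower mean in old muscles, and their median log2 fold change was -0.01, as it was over all rows tested. A single locus without a symbol was called higher in old muscles and 6 were called lower. Over all rows 0.175% were called higher and 0.127% lower, and of the loci without a symbol 0.106% and 0.634%. Without adjustment 3 passed at a p under 0.05 in the higher and 12 in the lower direction. Counts without adjustment were not taken over all rows, here or below, so no direction is read from them. The other tested loci had log2 fold changes from -3.09 to 3.33.

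All 7 called loci were shorter than 300 bp, were listed at 0 in at least 1 sample and belonged to the third pass. Among the 947 tested, 62 were shorter than 300 bp and 420 were at 0 in at least 1 sample. Over rows at or above 300 bp, limma called none of the 885 loci without a symbol, against 14 higher and 6 lower over all 10202 rows. Of the 885 loci, 5 passed without adjustment, all lower, with no such count over all rows to set beside them. The samples of each age differed in scale, so the calls are given with those of the scaled fits. Without the filter on low values none of the 7 was called (limma, adjusted p from 0.306 to 1.00). No fold against a group at 0 is given in the next paragraphs, because the fitted change then depends on the pseudocount of 1.

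The deepest division was at Gm11942, a processed pseudogene on chromosome 4 whose best match was Rplp1. The locus chr4:32964788-32964904 reached its first 17 bases and was listed at 0 and 0 FPKM in Old 1 and Old 2 and 7501 and 22040 FPKM in Young 1 and Young 2. The locus chr4:32965153-32965280 held its last 80 bases, printed above, and was listed at 0, 0, 750 and 776 FPKM. Neither locus had a value above 0 in an old muscle and both were high in each young muscle, and limma called both lower in old muscles (adjusted p = 2.39e-39 and 3.72e-21). Both passed the filter of 1 FPKM in 2 samples only through the young muscles, so a difference was built into their being tested. Without the filter the adjusted p was 1.00 and 0.306, with median scaling 0.00466 and 0.036, and with quantile normalization 0.000979 and 0.00617 (limma). These fits also differed in how far the error was pooled over rows. The median degrees of freedom of the error were 20530 in the main fit and 3.166 without the filter. They were 3.692 with median scaling and 4.614 with quantile normalization, and the effect of the filter alone was not tested. Rplp1 itself was not analysed here. The exact permutation test of a single locus, 2 samples against 2, could not go below a two-sided p of 0.333, and it gave that value at both.

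Another 2 loci were listed at 0 in both old muscles and called. The locus chr2:129170612-129170822 lay in an intron of AI847159 and stood at 48.2 FPKM in Young 1 and 159 in Young 2 (limma, adjusted p = 2.18e-08). The locus chr17:37712722-37712895, over no gene and 11085 bp from the olfactory receptor gene Olfr119, stood at 43.2 and 54.7 FPKM in them (limma, adjusted p = 6.19e-06). These loci, too, passed the filter only through the young muscles, and without it neither was called (adjusted p = 1.00 for both). With median scaling the adjusted p was 0.0303 and 0.037 (limma). Without Old 1 or without Old 2 the locus on chromosome 17 was no longer called (adjusted p = 0.242 and 0.568), nor was the locus in AI847159 without Old 2 (0.174).

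The locus chr12:24638694-24638891 over Gm6969, whose letters are printed above, stood at 18.6 and 0 FPKM in Old 1 and Old 2 and 200 and 493 FPKM in Young 1 and Young 2. The lower young value was 10.8 times the higher old value, the log2 fold change was -6.15 ± 0.94 (SE), and limma gave an adjusted p of 7.48e-08. Cox7a2l, its best match, was listed at 162, 84.5, 73.9 and 142 FPKM in that order, so the ages overlapped there. The call was lost without Old 2, without Young 1 or without Young 2 (adjusted p = 1.00, 0.0893 and 0.369), with median scaling (0.131) and with quantile normalization (0.0646).

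The other 2 called loci had ages that overlapped. The locus chr10:45875968-45876075, over Gpx4-ps2, stood at 6105 and 439 FPKM in Old 1 and Old 2 and 0 and 3965 FPKM in Young 1 and Young 2, and was the locus called higher in old muscles (log2 fold change 4.70 ± 1.08 SE; limma, adjusted p = 0.00657). Gpx4, a glutathione peroxidase that repairs lipid peroxides and whose messenger was identical over 99 of its 108 bases, was listed at 806, 0, 0 and 962 FPKM. The locus chr5:24581443-24581548, over no gene, stood at 4450, 0, 352 and 7540 FPKM and was called lower (log2 fold change -4.61 ± 1.09 SE; limma, adjusted p = 0.00929). At each locus a single 0 stood against higher values in the 3 other samples. Neither was called with median scaling (limma, adjusted p = 0.599 and 0.619) or quantile normalization (0.51 and 0.579). Without Young 1 the first turned to -1.27, and without Old 2 the second turned to 1.45, on the log2 scale.

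**Figure D3:**
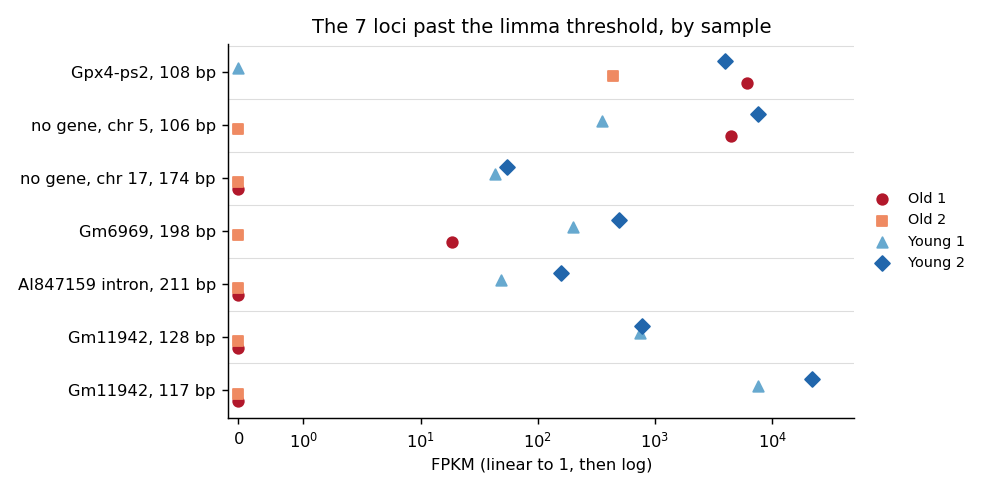
FPKM (linear to 1, then log) of the 7 loci past the limma threshold in each sample, named by the GENCODE M21 gene they touched and their length. In 4 of them both old muscles were at 0, in Gm6969 the old values lay below both young values, and in Gpx4-ps2 and the chromosome 5 locus the ages overlapped.

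Loci were also counted by a rule that needs no model. Ages did not overlap, with both old values above or both below both young values, at 15 loci without a symbol in the higher direction (1.13%, against 0.932% of all loci) and at 39 in the lower direction (2.95%, against 1.15% of all loci). With at least 2-fold between the nearest values, 3 were higher (0.227%, against 0.214% of all loci) and 21 lower (1.59%, against 0.296%). The higher share was thus near that of all loci and the lower share above it. Dividing each sample by its median raised the counts to 74 (5.59%) and 127 (9.59%), which were then below the shares of all loci (12.7% and 14.1%), so the excess in the lower direction did not hold under that scaling. Since Old 2 and Young 1 lay below the other pair, the rule left out loci at which each old sample differed only from the young sample of like level.

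**Figure D4:**
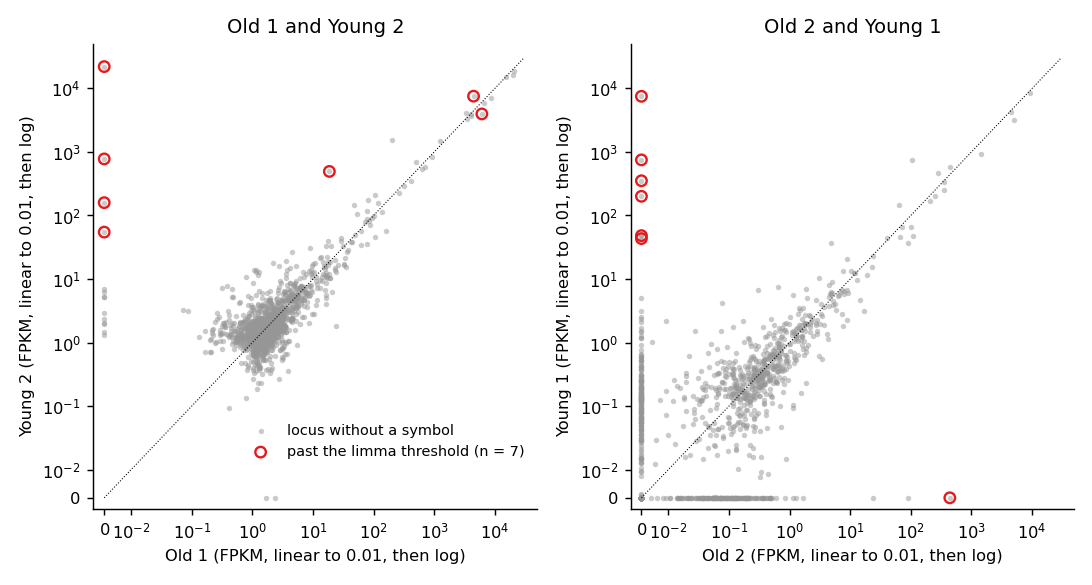
FPKM of the 1324 loci without a symbol in Old 1 and Young 2 (left) and in Old 2 and Young 1 (right), both axes linear to 0.01 and then log, with a dotted line of equal values and red circles around the 7 loci past the limma threshold. Most loci lay along the line on the left, and 545 stood at 0 in Old 2 and 529 at 0 in Young 1 on the right.

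Of the 116 loci without a symbol that reached at least 1 FPKM in every sample, 5 were non-overlapping and higher in old muscles and 6 were lower. The share over all loci under this condition was not counted, so these counts are not read as a result. None of the 5 higher loci was called by limma on the deposited scale. With median scaling 1 of them was called, and with quantile normalization 4 were. The locus with the widest gap, chr18:33384661-33384822 over the pseudogene AC115117.1, stood at 105 and 90.1 FPKM in Old 1 and Old 2 and 37.5 and 46.0 FPKM in Young 1 and Young 2, and it was 96.9% identical over 162 bases to Osgep, a tRNA-modifying enzyme. The locus chr3:129505457-129505739, over no gene and upstream of the fatty acid elongase gene Elovl6, stood at 16.1, 7.63, 1.79 and 5.61 FPKM. The locus chr4:82507836-82547283 touched an exon of the long non-coding RNA Gm11266. It also overlapped the GENCODE gene of the transcription factor Nfib outside its exons, and stood at 11.1, 4.20, 1.35 and 3.87 FPKM. In each the lower old value was less than 2-fold above the higher young value. With quantile normalization the loci near Elovl6 and over Gm11266 were called (limma, adjusted p = 0.0211 and 0.0453) and the locus over AC115117.1 was not (0.181).

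The remaining 2 loci were neighbours over the pseudogene BC023105 on chromosome 18. The locus chr18:60439298-60442463 stood at 20.4, 8.84, 2.26 and 6.25 FPKM in Old 1, Old 2, Young 1 and Young 2, and chr18:60442521-60444239 stood at 15.7, 7.41, 2.77 and 6.81 FPKM. Both were 94.1% identical, over 699 and 459 bases, to Gm4841, which was listed at 7.93, 3.50, 0.435 and 1.43 FPKM. The ages did not overlap at Gm4841 either, and its log2 fold change of 1.76 ± 1.01 (SE) did not pass on the deposited scale (limma, adjusted p = 1) but did with median scaling (0.0384) and quantile normalization (0.0439). The log2 fold changes of the 2 loci were 1.58 ± 0.96 and 1.13 ± 0.96 (SE), neither past the limma threshold on the deposited scale (adjusted p = 1.00 for both). With median scaling the first passed (0.0384) and the second did not (0.0505), and with quantile normalization both did (0.0155 and 0.0337).

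In the lower direction the widest gap with at least 1 FPKM in every sample was at chr12:101221710-101222623, over Mylf-ps, a processed pseudogene 99.3% identical over 421 bases to Myl1, the fast skeletal myosin light chain. It stood at 203 and 105 FPKM in Old 1 and Old 2 and 758 and 1563 FPKM in Young 1 and Young 2, so the lower young value was 3.73 times the higher old value. Its log2 fold change was -2.89 ± 1.11 (SE; limma, adjusted p = 1.00) on the deposited scale. It was called with median scaling (-2.88, adjusted p = 0.0382) and with quantile normalization (-2.69, adjusted p = 0.0179). Myl1 was listed at 18206, 3168, 3664 and 16592 FPKM, with ages that overlapped. The locus was 914 bp long, and it was the only one of at least 300 bp whose mean reached 100 FPKM.

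The other loci named by this rule had smaller gaps. The locus chr18:43476545-43476725, over Eif3j2, a gene of a translation initiation factor subunit, stood at 80.9, 64.8, 146 and 175 FPKM. The locus chr7:44482006-44485662 covered the long non-coding RNA 5430431A17Rik, 67 bp from Emc10, a subunit of the membrane protein insertion complex of the endoplasmic reticulum. It stood at 17.6, 8.93, 21.0 and 39.5 FPKM, whereas Emc10 stood at 40.6, 20.3, 26.8 and 56.0 FPKM with overlapping ages. The loci chr4:8948342-8951773 and chr4:8951824-8953108 were neighbours over no gene and stood at 4.21, 1.87, 7.05 and 15.1 FPKM and at 3.77, 1.14, 5.65 and 13.7 FPKM. Their log2 fold changes of -1.56 ± 0.97 and -1.63 ± 0.98 (SE) did not pass the limma threshold on the deposited scale (adjusted p = 1.00 for both). With median scaling the first passed (0.0365) and the second did not (0.0505), and with quantile normalization both did (0.0309 and 0.0211). The locus beside Emc10 passed with quantile normalization (limma, adjusted p = 0.0282) but not with median scaling (0.0962), and the locus over Eif3j2 passed with neither (0.218 and 0.31).

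The last pair belonged to a run. Looking back over the 54 non-overlapping loci after their values were seen, 24 lay within 10 kb of another of the same direction, in 9 groups, 7 lower with 19 loci and 2 higher with 5. Neighbouring loci can be pieces of 1 transcript and are not independent. The run on chromosome 4 held 5 of the 6 loci without a symbol between 8939253 and 8956256, began at Rps18-ps2, a pseudogene named for a small subunit protein, and lay 71144 bp or more from Chd7, a chromatin remodeller gene. Its 5 loci had medians of 3.77 and 1.14 FPKM in Old 1 and Old 2 and 5.65 and 13.7 FPKM in Young 1 and Young 2. Chd7 stood at 5.88, 3.06, 1.60 and 2.83 FPKM, so both old values lay above both young values there, and limma did not call it (log2 fold change 0.74 ± 1.00 SE, adjusted p = 1).

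Several lower loci lay beside a gene with a symbol whose old values also lay below its young values, although on the deposited scale limma called none of the 3 genes named here, nor did any pass without adjustment. With quantile normalization Mn1, Hbegf and Prnp were called (limma, adjusted p = 0.0155, 0.0165 and 0.0117), and with median scaling they were not (0.0555, 0.0505 and 0.0671). On chromosome 5, 2 loci between 111466433 and 111473655 lay 9308 bp or more downstream of Mn1, a transcriptional coregulator gene, with medians of 0.833, 0.148, 4.0 and 9.13 FPKM. Mn1 was listed at 9.92, 5.14, 18.3 and 36.5 FPKM (-1.72 ± 0.94 SE on the log2 scale; limma, adjusted p = 1). The locus chr18:36515876-36517976 lay 71 bp upstream of Hbegf, which encodes a growth factor of the epidermal growth factor family, and stood at 0.486, 0, 1.45 and 5.12 FPKM. Hbegf was listed at 7.50, 3.42, 13.0 and 25.1 FPKM (-1.64 ± 0.95 SE; limma, adjusted p = 1). In both places every old value of the gene and of the loci was below the young values. The locus beside Hbegf belonged to the first pass, and its strand was not compared with that of the gene. The longer locus near Mn1 belonged to the second pass. By the positions and the downstream label Mn1 itself belonged to the first, so the passes of that locus and gene differed.

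The same order was seen beside Prnp, the prion protein gene. On chromosome 2, 2 loci between 131904374 and 131906098, the first over Lamr1-ps1, lay upstream of it at 3830 bp or more. They were listed at 0 in both old muscles, at 0.367 and 0.239 FPKM in Young 1 and at 2.97 and 5.13 FPKM in Young 2, and Prnp was listed at 104, 53.2, 160 and 334 FPKM (-1.62 ± 1.00 SE; limma, adjusted p = 1). Since the strand of these loci is not known here, extension of the gene and a separate transcript cannot be told apart.

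Of the other runs described here, none had such a partner. On chromosome 4, 3 loci between 155451667 and 155462064 touched exons of Cfap74, a gene of motile cilia, and had medians of 0.418, 0, 1.03 and 3.09 FPKM. On chromosome 17 the called locus near Olfr119 was followed by a second locus, of 395 bp, at 0 in both old muscles, 1.29 FPKM in Young 1 and 5.26 in Young 2, and Olfr119 itself was listed at 0 in all 4 samples. In the higher direction 3 of 4 loci between 14612652 and 14627341 on chromosome 6 touched no gene and had medians of 3.39, 1.12, 0.0941 and 0.655 FPKM. The nearest gene with a symbol, Ppp1r3a, a regulator of glycogen synthesis in muscle, lay 86481 bp away or more, at 101, 49.1, 43.3 and 89.0 FPKM with overlapping ages.

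**Figure D5:**
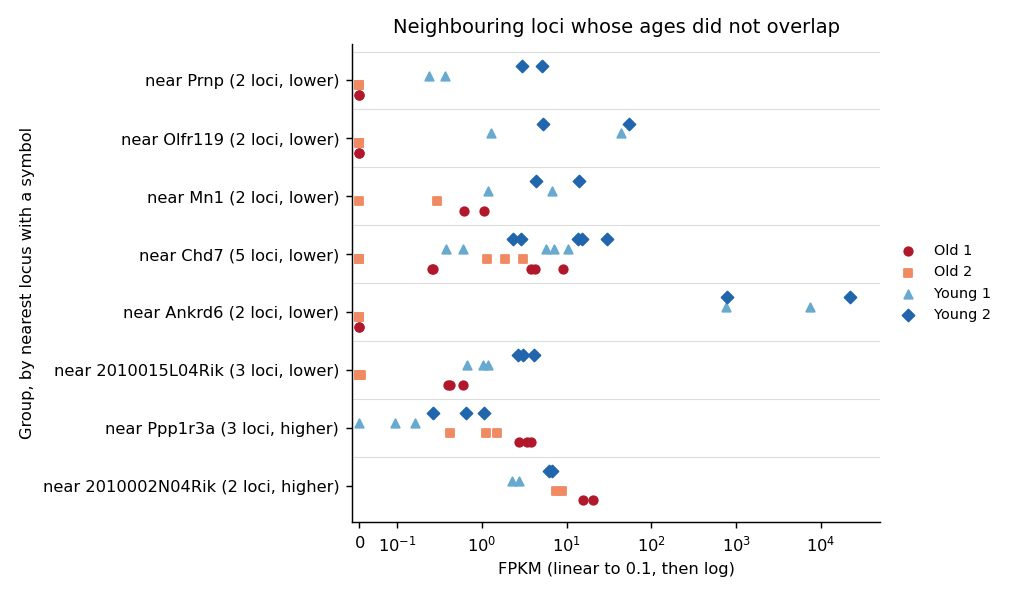
FPKM (linear to 0.1, then log) by sample of 21 loci in 8 groups of neighbouring loci whose ages did not overlap, each group labelled by its nearest locus with a symbol. Within each locus both old values lay on the same side of both young values, as the choice of loci required, and the levels ran from 0 to 22040 FPKM.

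By the feature touched, the median log2 fold change was 0.10 over 49 tested pseudogene loci, -0.01 over 175 at protein-coding exons, -0.06 over 132 at long non-coding exons, 0.05 over 96 in introns and -0.01 over 334 over no gene. Of the 7 called loci 4 touched a pseudogene exon (1 higher and 3 lower), 2 touched no gene and 1 lay in an intron. None of the 307 tested loci at protein-coding or long non-coding exons was called by limma, and 1 higher and 1 lower passed without adjustment. No such count without adjustment was taken over all rows.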

How the data were processed

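TA muscle mRNA-seq was analysed in 4 samples, 2 per age, grouped by the age in their labels. The study's design text gives 3 per age, whereas the 4 samples used here were all those of the study. The paper states that its statistics rested on 2 independent mRNA-seq experiments per sample. The authors trimmed the reads, removed duplicates with a program of their own, aligned them to mm10 with TopHat2 (2.0.10) guided by RefSeq, and deposited a FPKM value for each locus, made with Cufflinks (Cuffdiff 2.1.1 for their comparisons, which were not used). The library kit is called stranded in the methods, but no strand is given per locus.

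Rows present in all 4 samples were used, 1 incomplete last line per sample was left out, and the values ended in chromosome 7 or 8. Deposited starts counted from 0 and were raised by 1: 7772 of 17007 starts then equalled RefSeq's, against 481 before. Depth is unknown, so no counting interval is given. Loci were overlapped with GENCODE M21 exons and genes, in the order pseudogene, protein-coding, long non-coding, small RNA, intron. Stretches of at least 30 bases shared with a pseudogene were searched in the protein-coding transcripts of GENCODE M21 with blastn 2.17.0 (expect threshold 1e-05). Other pseudogenes and non-coding transcripts were not searched.

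Log2(FPKM + 1) was compared with limma 3.58.1 in R 4.3.3 (trend, two-sided, Benjamini-Hochberg adjusted p under 0.05), with rows of the same symbol summed and loci without one kept apart. In the main fit the spread came almost wholly from all rows together. It did so far less without the filter on low values, with median scaling or with quantile normalization. On simulated data the fit recovered known changes when all samples had the same scale, and did not when the samples of an age differed by a common factor, and samples of an age differ in scale here, so median scaling and quantile normalization are given beside the results they change. The named loci were the 10 highest by mean, those called (up to 10 per direction), the 5 per direction with the widest gap among non-overlapping loci of at least 1 FPKM in every sample, and the longest and shortest. Loci in neighbouring groups and genes beside loci were named after their values were seen, and 1 of the 9 groups is not reported here. The members, lists and tests were chosen with earlier results of these data known. Python 3.11.15, pandas 2.3.3, numpy 2.4.6 and matplotlib 3.10.9 were used.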

Additional observations from a re-analysis of the deposited data

How the results depend on the processing

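The main counts were 1 locus without a symbol called higher and 6 lower in old muscles, of 947 tested. Over all 10266 rows they were 18 and 13. With limma, no locus was called without a filter on low values (0 and 0; 1 higher and 9 lower without adjustment), with at least 1 FPKM in all 4 samples (0 and 0; 0 and 2), over rows of at least 300 bp (0 and 0; 0 and 5) or, chosen after seeing the data, without rows at 0 in any sample (0 and 0; 0 and 6). Over all rows these settings called 0 and 0, 4 and 2, 14 and 6, and 4 and 2 after adjustment, in that order. The counts without adjustment were not taken over all rows. A pseudocount of 0.1 gave 3 and 7, median scaling 1 and 9, quantile normalization 5 and 18, and rows kept apart or no trend 1 and 6. Over all rows these gave 20 and 14, 33 and 31, 119 and 188, 18 and 12, and 15 and 12. With quantile normalization the lower share of the loci without a symbol was near that of all rows. Leaving out a sample left 1 in its age, so the counts called are not given. The loci without a symbol that were tested numbered 191 without Old 1, 945 without Old 2, 931 without Young 1 and 177 without Young 2. A locus at 0 in both old muscles could not be tested without a young sample, because the filter needs 1 FPKM in 2 samples. The median log2 fold change then ran from -0.79 to 0.675, and the cause was not tested. The replicate numbers were not a pairing in the design: with 2 pairs, deviations of samples with the same number correlated at -0.781 over the tested loci. The replicate block called 0 higher and 2 lower, against 2 and 3 over all 10266 rows. Crossed pairs, added after seeing the data, joined Old 1 to Young 2 and the others to each other. They called 127 and 136 of the 947 loci without a symbol. Over all 10266 rows they called 2812 and 3374, a larger share.

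When a sample was left out, the log2 fold change ran from -0.44 to 0.72 at chr13:3298868-3298987, from -0.66 to 1.65 at chr6:99877610-99877716, from -0.85 to 0.96 at chr2:108948769-108948878, from -1.0 to 1.92 at chr2:172509419-172509527, from -2.93 to 9.59 at chr5:123066695-123066800, from -10.67 to 1.45 at chr5:24581443-24581548, from -1.27 to 10.68 at chr10:45875968-45876075, from -1.75 to 1.83 at chr16:22295359-22295469 and from -2.31 to 1.27 at chr15:90764235-90764346. Median scaling ended the calls at chr12:24638694-24638891 (adjusted p = 0.131), chr10:45875968-45876075 (0.599) and chr5:24581443-24581548 (0.619) in limma, and made calls at 3 named loci of at least 300 bp. Quantile normalization made calls at 8 named loci. At the other named loci that were tested no setting turned the direction.

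Under 1 FPKM in place of 0 there were 250 loci in Old 1 and 1183 in Old 2, and 1156 in Young 1 and 182 in Young 2. Loci whose ages did not overlap numbered 74 higher and 127 lower with median scaling and 3 and 21 with a gap of at least 2-fold. Loci within 1 kb of a locus with a symbol, or overlapping it, numbered 374 in place of 82. Unknown depth and 2 samples per age limit all of these values.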
